A study of Nothobranchius furzeri with 15 samples.

Results

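The 200 genes whose expression varied least over all 15 samples of killifish skin were described. They were chosen by their own values. Levels are given in CPM, the count of a gene relative to the size of its library. Library sizes were corrected by TMM factors (trimmed mean of M values), which keep a few genes with many reads from shifting all others. Of the 26739 genes in the deposited table, 9593 averaged at least 10 CPM over the samples. The 100 of highest mean CPM in the DMSO samples were left out, which left 9493 candidate genes. The 200 candidates with the lowest coefficient of variation (CV, the standard deviation divided by the mean) over the 15 samples were taken, which is 2.11% of the candidates. Low spread in these samples is therefore what defines the genes and is no finding. Because the choice used every sample, calls, fold changes and intervals of these genes are given below as descriptions and not as tests.

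The samples were skin of male turquoise killifish (Nothobranchius furzeri) of the inbred strain GRZ at 9 weeks of age. The DMSO group (5 samples) received dimethyl sulfoxide, the solvent, the 15 pM group (5 samples) rotenone at 15 pM, and the 150 pM group (5 samples) rotenone at 150 pM. The sources used here give neither route nor duration of exposure. The labels do not say that each sample came from another fish, so the spread between samples may be partly technical, and whole skin was sequenced, so that fewer cells of a type and less RNA per cell cannot be told apart. The deposited files name genes by numbered identifiers and pair them with no symbol. A RefSeq table of 38438 genes matched 0 of them, so the genes below are given by identifier and their functions are not known here. For the same reason the tissue label was not set against skin marker genes.

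Genes that keep a near-constant transcript level across samples are used as reference genes, the yardstick against which other transcripts are scaled in quantitative PCR. Such genes are often housekeeping genes, which serve functions that every cell needs, such as protein synthesis, protein degradation, splicing or vesicle transport. Rotenone blocks complex I, the enzyme by which electrons from NADH enter the mitochondrial respiratory chain. Skin holds many cell types, among them epidermal cells, dermal fibroblasts, pigment cells and blood, and a transcript level in whole skin depends on both the makeup of the sample and the state of its cells.

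Total counts ranged from 21857670 to 28314659 per sample. At this depth the candidate of lowest abundance averaged 245 counts per sample, and counting error alone gave a candidate a CV of up to 6.35%. TMM factors ranged from 0.833 to 1.19. A pair of samples stood apart. Over all candidates the median absolute difference of a gene from its 15-sample mean was 32.8% in 15 pM replicate 4 and 23.8% in 15 pM replicate 5, against 9.06% to 16.5% in the other samples. The main summaries are also given without one or both of these samples.

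The CV of the 200 genes ran from 3.52% to 8.95%, with a median of 7.99%. The median over all candidates was 22.6%. Counting error was a sizeable part of what remained. For each gene the CV that Poisson counting would give at its level was computed. It had a median of 3.42% over the 200 genes, and its square made up a median of 21.2% of the square of the observed CV. In 19 of the 200 genes counting made up the larger part of that square. After counting error was removed, the CV of the 200 genes had a median of 6.84%, against 22.2% over all candidates. For 1 gene, Nfu_g_1_018323, nothing was left over. Its CV of 6.07% lay below the 6.10% of counting alone, at a mean of 10.85 CPM.

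**Figure D1:**
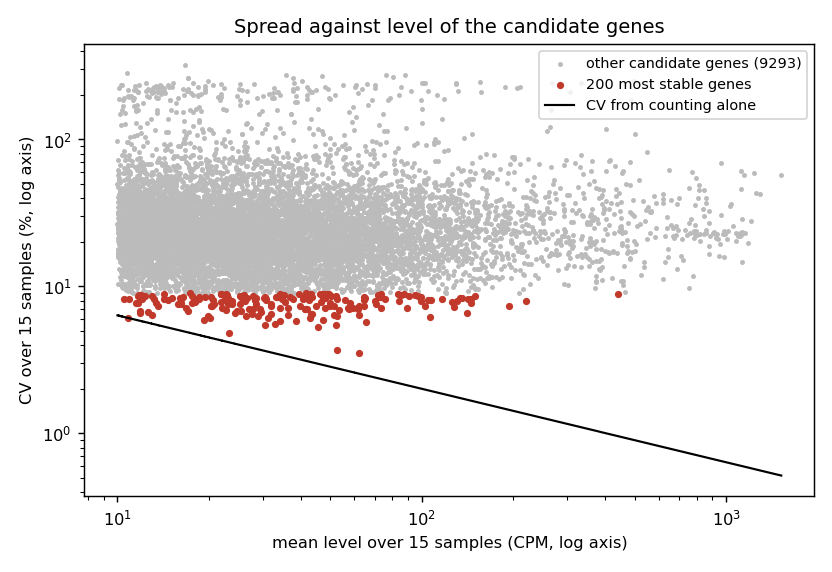
CV over the 15 samples (%, log axis) against mean level (CPM, log axis) for the 200 most stable genes (red) and the 9293 other candidate genes (grey). The black line is the CV that counting alone would give at each level. The red points fill a band under 8.95% at all but the highest levels, and 1 of them lies on the line at the left edge.

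In terms of single samples, the highest of the 15 values of a gene was a median of 1.33 times the lowest. This ratio was 1.13 for the steadiest and 1.52 for the most uneven of the 200 genes, and it stayed under 1.5 in 198 of them. Over all candidates the median ratio was 2.31, and 63.5% of the candidates spanned more than 2-fold. The median ratio was 1.302 for the 200 genes and 1.955 for all candidates without 15 pM replicate 4, and without 15 pM replicates 4 and 5 it was 1.277 and 1.746. Without both samples the median CV was 7.33% for the 200 genes, against 16.3% for all candidates.

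The gene of lowest CV was Nfu_g_1_021163, at 62.3 ± 2.19 CPM (SD, n = 15). It had 60.5, 60.5, 62.9, 64.8 and 60.0 CPM in DMSO skin, 62.7, 62.7, 65.3, 59.2 and 59.3 CPM at 15 pM, and 62.7, 61.9, 62.7, 66.9 and 62.3 CPM at 150 pM. The 3 groups overlapped throughout, and the highest sample, 150 pM replicate 4, was 1.13 times the lowest, 15 pM replicate 4. Its CV of 3.52% compares with 2.54% from counting alone, with 1197 to 1866 counts per sample.

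Nfu_g_1_017531 came next, with a CV of 3.69%. Its level was 53.8, 55.5, 53.4, 52.4 and 54.8 CPM in DMSO skin, 52.9, 51.8, 53.9, 55.2 and 49.5 CPM at 15 pM, and 48.7, 53.3, 52.6, 52.5 and 50.6 CPM at 150 pM. The lowest value was that of 150 pM replicate 1 and the highest that of DMSO replicate 2, and again the groups overlapped. Only 3 of the 200 genes had a CV under 5%, the third being Nfu_g_1_007979. It had 22.6, 23.8, 21.7, 24.1 and 23.2 CPM in DMSO skin, 24.6, 23.1, 23.9, 24.9 and 24.7 CPM at 15 pM, and 23.5, 22.8, 22.9, 20.8 and 22.4 CPM at 150 pM. Its CV of 4.84% compares with 4.16% from counting alone. The 15 pM samples lay at the upper end of its range, with all but replicate 2 above every 150 pM sample.

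The fourth and the fifth gene each had a high value in the same sample. Nfu_g_1_014614 (CV 5.31%) had 46.5, 48.0, 46.2, 46.5 and 49.0 CPM in DMSO skin, 47.0, 42.7, 42.6, 49.6 and 41.7 CPM at 15 pM, and 44.0, 45.2, 43.0, 44.4 and 46.6 CPM at 150 pM. The 15 pM samples of this gene held both its lowest and its highest value. Nfu_g_1_019247 (CV 5.42%) had 55.7, 54.5, 51.7, 50.7 and 53.5 CPM in DMSO skin, 51.1, 50.7, 51.8, 59.4 and 50.3 CPM at 15 pM, and 53.6, 52.8, 48.3, 50.7 and 48.8 CPM at 150 pM. In both genes the highest of the 15 samples was 15 pM replicate 4.

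**Figure D2:**
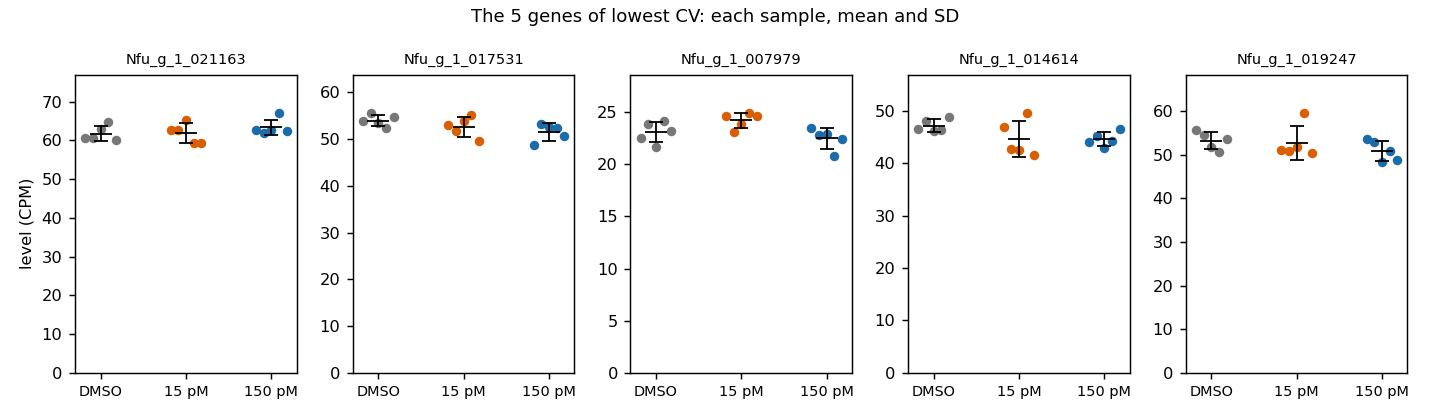
Level (CPM, linear axis from 0) of the 5 genes of lowest CV in each of the 5 DMSO, 5 15 pM and 5 150 pM samples (points), with the group mean and SD (bars). All 3 groups overlap in each gene, and the highest orange points of Nfu_g_1_014614 and Nfu_g_1_019247 are 15 pM replicate 4, at 49.6 and 59.4 CPM.

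The values at the limit of the choice were close to one another. Just inside lay Nfu_g_1_022432 with a CV of 8.944% and Nfu_g_1_019523 with 8.948%, and just outside Nfu_g_1_019678 with 8.966% and Nfu_g_1_009186 with 8.970%. The limit thus cuts a continuous range. Nfu_g_1_009186 had 17.7, 19.6, 18.8, 20.5 and 18.3 CPM in DMSO skin, 19.2, 19.8, 19.2, 13.9 and 18.8 CPM at 15 pM, and 18.2, 19.7, 17.8, 20.3 and 20.9 CPM at 150 pM. The 13.9 CPM of 15 pM replicate 4 lay below all the other samples, and this gene was not among the 200.

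The stable genes were mostly of middling level. Their mean levels ran from 10.48 to 440.9 CPM with a median of 34.5 CPM, against 27.8 CPM for all candidates. Of the candidates at 10 to 20 CPM, where counting alone gave a median CV of 5.32%, 42 of 3263 (1.29%) were among the 200. The share was 98 of 3643 (2.69%) at 20 to 50 CPM, 42 of 1550 (2.71%) at 50 to 100 CPM and 17 of 761 (2.23%) at 100 to 300 CPM. At over 300 CPM it was 1 of 276 (0.362%), although counting error was smallest there, at a median CV of 0.924%. Leaving out the 100 genes most abundant in DMSO skin removed none that would have been chosen, since the lowest CV among them was 10.3%.

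The single gene over 300 CPM was Nfu_g_1_012946, at 436.0 ± 34.0 CPM in DMSO skin, 431.9 ± 36.1 CPM at 15 pM and 454.9 ± 51.0 CPM at 150 pM (SD, n = 5 each). Its lowest sample was 15 pM replicate 5 with 372.6 CPM and its highest 150 pM replicate 5 with 522.6 CPM. Next in level was Nfu_g_1_003030, which shows how different the spread within a group could be. It had 217.0 ± 3.97 CPM in DMSO skin, a CV of 1.83%, but 219.1 ± 24.5 CPM at 15 pM and 222.8 ± 20.9 CPM at 150 pM (SD, n = 5 each). The 3 means of this gene were close to each other, while its single rotenone samples ran from 183.9 CPM in 15 pM replicate 2 to 252.1 CPM in 15 pM replicate 5. At the other end, Nfu_g_1_017026 had the lowest mean, 10.48 CPM. Its samples had 9.78, 10.4, 10.8, 11.3 and 11.1 CPM in DMSO skin, 11.6, 10.3, 11.7, 9.94 and 11.1 CPM at 15 pM, and 9.24, 11.46, 9.58, 9.69 and 9.25 CPM at 150 pM. Apart from replicate 2, the 150 pM samples of this gene lay below every sample of the other groups.

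Gene length was a property that the choice did not use. The length by which the authors divided could be recovered from counts and RPKM for all 200 genes and for 9261 of the candidates. The 200 genes were longer, with a median of 4696 bases (quartiles 3239 and 6215), against 3370 bases (quartiles 1863 and 5552) for the other candidates. Of the candidates of 4000 to 8000 bases, 102 of 3002 (3.40%) were among the 200, and of those under 1000 bases 5 of 1007 (0.497%). At 8000 bases and over the share was lower again, 23 of 862 (2.67%). The 200 genes were the longer ones at each level examined. Their median length over that of the other candidates was 1.57 at 10 to 20 CPM, 1.32 at 20 to 50 CPM, 1.18 at 50 to 100 CPM and 1.17 above. The genes that the same rule chose without 15 pM replicate 4 had a median of 4620 bases. Per length, the 200 genes had a median of 7.53 CPM per kb, against 9.21 CPM per kb for the other candidates. These are descriptions of the chosen genes, and no test was made over genes.

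Within groups the stable genes followed the series as a whole. Their CV among 5 samples had a median of 5.42% in DMSO skin, 8.19% at 15 pM and 6.89% at 150 pM. Over all candidates these medians were 11.3%, 26.3% and 13.8%. The CV was higher at 15 pM than in DMSO in 150 of the 200 genes (75%) and in 86.6% of the candidates. Without 15 pM replicate 4 the count was 139 (69.5%), against 74% of the candidates. Without 15 pM replicates 4 and 5 it was 106 (53%), against 52.7%, and the median CV at 15 pM was 5.67%, against 11.98% for all candidates. These counts set 4 and then 3 samples at 15 pM against 5 in DMSO. A CV of fewer samples tends to lie lower, for which no correction was made.

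The samples took unequal parts in the remaining spread. In 15 pM replicate 4 the 200 genes deviated from their means by a root mean square of 10.3%, and in 15 pM replicate 5 by 9.96%. In the other samples this value was 5.63% to 8.51%. The highest of the 15 values fell in 15 pM replicate 4 for 45 genes, more than in any other sample, and in 150 pM replicate 2 for 24. The lowest value fell in 15 pM replicate 5 for 33 genes and in 150 pM replicate 3 for 31. At the even end, DMSO replicate 3 held the highest value of 7 genes and the lowest of 1. Among all candidates, 15 pM replicate 4 held the highest value of 29.8% and the lowest of 20.5%, against 22.5% and 7% of the 200 genes. The lowest value fell in 15 pM replicate 5 for 17.4% of the candidates and 16.5% of the 200 genes. For 150 pM replicate 3 these shares were 12.9% and 15.5%. The highest value fell in 150 pM replicate 2 for 5.2% of the candidates and 12% of the 200 genes. DMSO replicate 3 held the highest value of 3.82% and the lowest of 2.37% of the candidates.

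**Figure D3:**
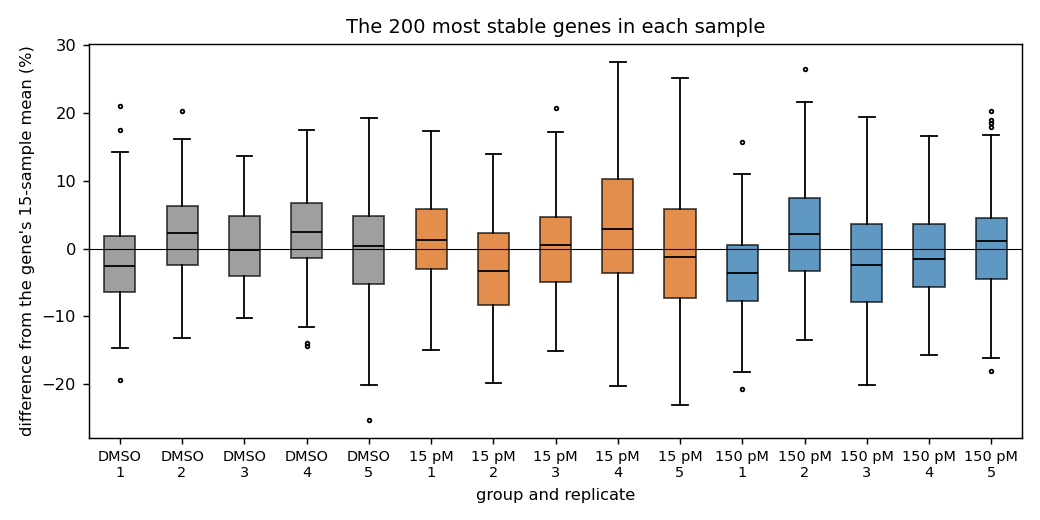
Difference of each of the 200 genes from its own mean over 15 samples (%), by sample. Boxes span the quartiles with the median as a line, whiskers reach the farthest point within 1.5 box lengths and dots lie beyond. The widest boxes are those of 15 pM replicates 4 and 5, whose root mean square deviations are 10.3% and 9.96%.

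How the 200 genes varied together was described from the values that also chose them. On log2(CPM + 1), scaled per gene, the first principal component took up 16.6% of their variance and the second 15.4%. Over all candidates these shares were 28.4% and 20.7%. The first component took up 17.8% in the 200 genes and 28.2% in all candidates without 15 pM replicate 4, without 15 pM replicate 5 18.3% and 31.8%, and without both 18.25% and 22.5%. In the stable genes 150 pM replicate 3 made up 26.3% of the first component, and 15 pM replicates 4 and 5 made up 19.3% each. In all candidates 15 pM replicate 4 alone made up 79.2% of it. As a description over the same 15 libraries, the median correlation of a pair of the 200 genes was r = 0.08, with quartiles of -0.14 and 0.30. For pairs of candidates the median was 0.00, with quartiles of -0.30 and 0.31. Pairs with r above 0.6 were 3.52% of all pairs of stable genes and 8.13% of all pairs of candidates, and pairs with a negative r of a size above 0.6 were 1.03% and 6.66%. Over all 15 samples, strong correlations of either sign were thus fewer among the 200 genes, while their median was slightly higher. The choice for low spread bears on these shares, so nothing is read from the difference. The pair correlations were not computed again without 15 pM replicates 4 and 5.

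How the choice carries over to a sample it has not seen was examined by applying the rule to 14 samples and then looking at the sample left out. This measure is independent of the choice apart from the TMM factors. For each gene the size of its log2 ratio to the mean of the other 14 was taken, and the median was turned back into a percentage. A lower gene thus counts for more than in a plain percentage difference. In 13 of the 15 samples the 200 genes chosen without it deviated from the mean of the other 14 by a median of 5.10% to 8.48%. These values were lower than those of all candidates in each sample, which were 10.3% to 19.7%. For 15 pM replicate 5 the median was 17.4%, against 29.1% for all candidates. For 15 pM replicate 4 it was 34.4%, against 41.8%. Genes that were steady in the other 14 samples were thus not steady in this sample, and they were mostly higher there. Of the 200 genes chosen without it, 162 were higher and 38 lower in 15 pM replicate 4 than the mean of the others. The median ratio was 1.31 with quartiles of 1.06 and 1.55 and a range of 0.342 to 3.09, and 61 genes differed by over 1.5-fold. In 15 pM replicate 5, 88 genes were higher and 112 lower, and 16 differed by over 1.5-fold. In each of the other 13 samples at most 1 gene did. For all candidates the numbers higher, lower or over 1.5-fold were not counted. These counts therefore cannot be called particular to the chosen genes.

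**Figure D4:**
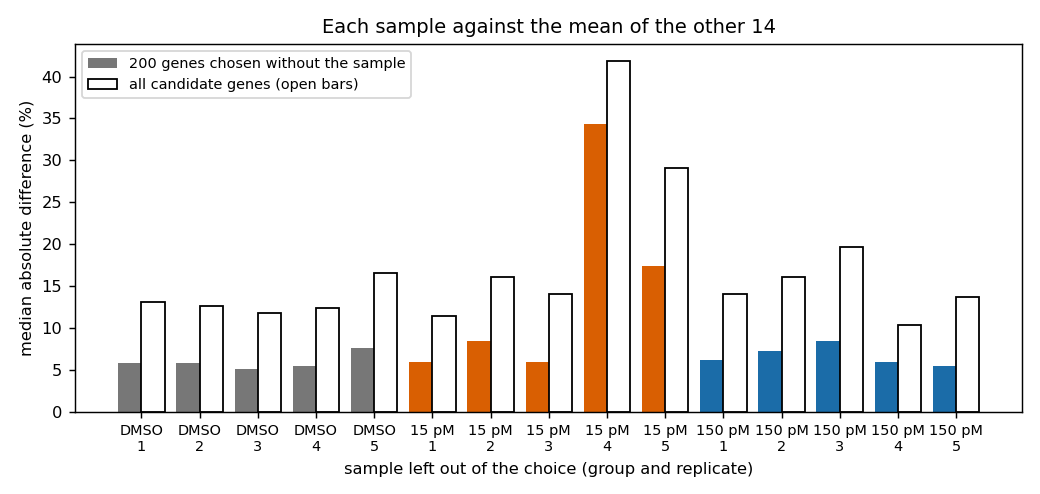
Median absolute difference (%) of each sample from the mean of the other 14, for the 200 genes chosen without that sample (filled bars, grey for DMSO, orange for 15 pM, blue for 150 pM) and for all candidate genes (open bars). The median was taken over the sizes of the log2 ratios and turned back into a percentage. The filled bars are 5.10% to 8.48% high except those of 15 pM replicate 4 at 34.4% and 15 pM replicate 5 at 17.4%.

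Among the runs that left out 1 sample, the choice changed most without that sample. Without 15 pM replicate 4 the rule chose only 82 of the 200 genes again (41%), and without 15 pM replicate 5 it chose 131 (65.5%). Leaving out any other single sample kept 170 to 190. In all, 67 of the 200 genes were chosen in each of the 15 runs. The 200 genes chosen without 15 pM replicate 4 had a median CV of 6.52% over the remaining 14 samples. It was 7.65% for the original 200 genes there and 18.9% for all candidates. This order is fixed by the choice, which took the lowest CV over those 14 samples. In 15 pM replicate 4 itself the original 200 genes, whose choice used it, deviated from their means by a median of 6.96%. This is a plain percentage of a mean that includes the sample, so it is not the measure used for the samples left out.

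The rule's CV was also computed within 1 group at a time. The minimum level and the TMM factors still used all 15 samples, and the abundance limit still used the DMSO samples. The 200 candidates of lowest CV in DMSO skin shared 20 genes with the list (10% of each), those of 15 pM 75 genes (37.5%) and those of 150 pM 29 genes (14.5%). The DMSO choice shared 9 genes with the 15 pM choice and 17 with the 150 pM choice, and 2 genes were in all 3. Genes chosen in DMSO skin had a median CV of 2.73% there, but of 17.6% at 15 pM and 9.63% at 150 pM, groups whose CV the choice had not used. All candidates had 26.3% and 13.8% in those groups. Genes chosen at 15 pM had a median CV of 7.07% in DMSO skin, and genes chosen at 150 pM 8.01%, against 11.3% for all candidates. In each of these 6 carry-overs the chosen genes were steadier than the candidates, by a ratio of medians of 0.626 to 0.709.

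The 15 pM samples were set against DMSO in a fit of counts over all 18253 genes that passed a filter on low counts, which all 200 genes passed. By edgeR's quasi-likelihood test with Benjamini-Hochberg adjustment (called at an adjusted p under 0.05), 0 of the 200 genes were called, where 1.75% of all tested genes were. At an unadjusted p under 0.05 there were 6 of the 200, 1 higher and 5 lower, against 21.4% of all tested genes. The tested genes include many below the level asked of candidates. Of the 9493 candidates, edgeR called 233 for 15 pM against DMSO, 16 for 150 pM against DMSO and 221 between doses. DESeq2 called 3 of the 200, where it called 9.24% of the genes to which it gave an adjusted p. By limma-voom 6 were called, where 10.6% of all tested genes were. Nothing is read from these counts, because the genes were chosen for a low spread over the same samples. The same holds for the fold changes of the 200 genes and for the comparisons below. The log2 fold changes of the 200 genes lay between -0.25 and 0.17 with a median of -0.01, and their median size was 0.059, against 0.270 for all tested genes. Without 15 pM replicate 4 they lay between -0.26 and 0.21, and edgeR called 0 of the 200, where it called 4.32% of all tested genes. With 15 pM replicate 5 left out they had the same range, and 0 were called, where 1.9% of all tested genes were.

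Among them Nfu_g_1_003596 had the largest negative value. It had 76.5, 80.9, 79.7, 81.3 and 77.3 CPM at 15 pM, against 91.0, 105.4, 95.3, 90.1 and 86.2 CPM in DMSO skin. All 15 pM samples lay below all DMSO samples, with a log2 fold change of -0.25 (standard error 0.08), while the 150 pM samples, at 84.8 to 95.2 CPM, overlapped the DMSO range. Nfu_g_1_013547 had the largest positive value, 0.17 (standard error 0.08). Its level was 18.6, 20.1, 19.8, 19.0 and 19.8 CPM at 15 pM, against 15.98, 17.5, 16.5, 18.3 and 17.6 CPM in DMSO skin, again with no overlap. Samples of these groups did not overlap in 6 of the 200 genes (3%), and in 6.28% of all tested genes.

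For 150 pM against DMSO, 0 of the 200 genes were called by the same edgeR test, where 0.104% of all tested genes were. At an unadjusted p under 0.05 there were 11, 4 higher and 7 lower, against 15.1% of all tested genes. DESeq2 called 2 of the 200, where it called 3.7% of the genes to which it gave an adjusted p. By limma-voom 11 were called, where 12.8% of all tested genes were. The log2 fold changes lay between -0.23 and 0.23 with a median of -0.01 and a median size of 0.057, against 0.226 for all tested genes. Their range was the same without 15 pM replicate 4 or 5, which enter this comparison only through the shared estimate of spread and the scaling. Then 0 of the 200 were called, where edgeR called 1.85% and 0.13% of all tested genes. The largest positive value was that of Nfu_g_1_020762, with 26.3, 28.6, 27.2, 28.1 and 29.5 CPM at 150 pM, against 24.1, 25.8, 24.0, 23.5 and 22.7 CPM in DMSO skin. Every 150 pM sample of this gene was above every DMSO sample, and its log2 fold change was 0.23 (standard error 0.08). The largest negative value, -0.23 (standard error 0.09), was that of Nfu_g_1_023497. It had 11.2, 10.9, 10.25, 11.51 and 10.8 CPM at 150 pM, against 14.4, 12.7, 12.7, 12.4 and 12.4 CPM in DMSO skin, where replicate 1 was above the rest. The samples did not overlap in 15 of the 200 genes (7.5%), 5 higher and 10 lower at 150 pM, and in 8.1% of all tested genes.

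For 150 pM against 15 pM, 0 of the 200 genes were called by edgeR, where 1.7% of all tested genes were. At an unadjusted p under 0.05 there were 9, 7 higher and 2 lower, against 22.7% of all tested genes. DESeq2 called 4 of the 200, where it called 9.47% of the genes to which it gave an adjusted p. By limma-voom 2 were called, where 7.74% of all tested genes were. The log2 fold changes lay between -0.19 and 0.29 with a median size of 0.066, against 0.278 for all tested genes. The largest was that of Nfu_g_1_014133, with 28.0, 27.9, 28.6, 28.6 and 28.8 CPM at 150 pM, against 24.6, 21.7, 23.9, 23.2 and 24.5 CPM at 15 pM. Its DMSO samples, at 23.8 to 26.5 CPM, lay below all 150 pM samples. Its log2 fold change between the doses was 0.29 (standard error 0.07). Without 15 pM replicate 4, edgeR called 1 of the 200 genes, and it was this one, where 3.37% of all tested genes were called. The log2 fold changes of the 200 genes then lay between -0.20 and 0.28. With 15 pM replicate 5 left out they lay between -0.22 and 0.31, and 0 were called, where 0.997% of all tested genes were. Nfu_g_1_022432 had the largest negative value, -0.19 (standard error 0.08), with 38.2, 37.2, 38.1, 35.6 and 37.7 CPM at 150 pM, against 44.3, 43.8, 45.2, 45.2 and 38.5 CPM at 15 pM. Every 150 pM sample lay below every 15 pM sample, though 15 pM replicate 5 was close to them, and DMSO samples, at 40.1 to 47.1 CPM, lay above all 150 pM samples. The samples did not overlap in 10 of the 200 genes (5%), and in 5.45% of all tested genes. The 3 comparisons share samples, so that their values for a gene are not independent.

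**Figure D5:**
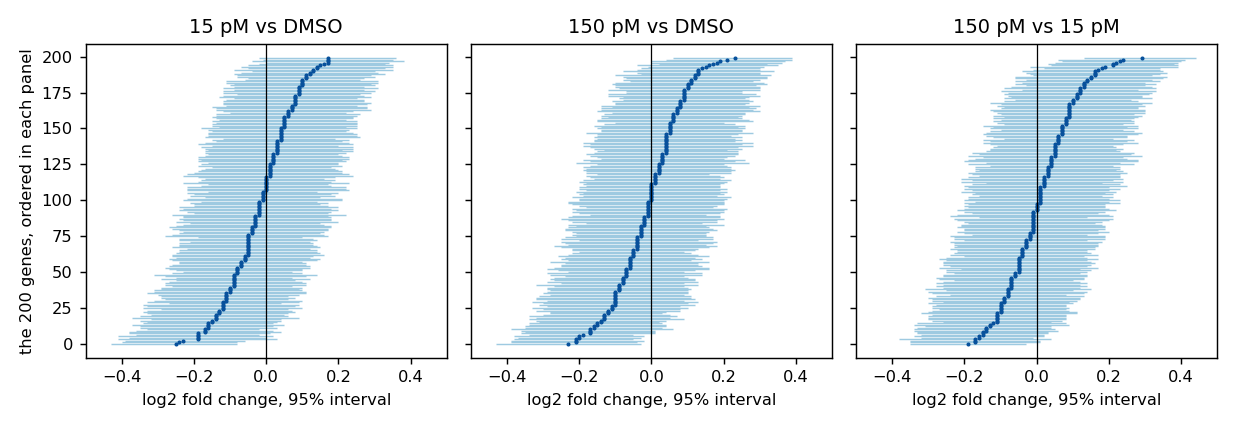
Log2 fold change (points) with a 95% interval computed from the edgeR test (lines) for each of the 200 genes, ordered by value in each panel, for 15 pM against DMSO, 150 pM against DMSO and 150 pM against 15 pM. All points lie between -0.25 and 0.29, and all intervals lie within 0.5 on either side of 0.

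The precision of these values was limited even so. The 95% interval of a gene reached a median of 0.20 (log2) to either side for 15 pM against DMSO, 0.19 for 150 pM against DMSO and 0.20 for 150 pM against 15 pM. In all 3 comparisons the intervals of all 200 genes lay within 0.5 of 0. The choice for low spread narrows these intervals and keeps the fold changes small, so nothing is read from their nearness to 0. The intervals are no measure of how a newly measured sample would fall.

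Differences between groups took an uneven part in the small spread that was left. The share of a gene's variance that lay between the 3 group means had a median of 18.04% over the 200 genes, with quartiles of 7.74% and 34.8%. Over all candidates the median was 24.9%. Without 15 pM replicate 4 it was 21.7% for the 200 genes, against 31.7% for all candidates. Means of 5 samples differ by sampling alone, and this part was not removed from the shares. The largest share, 84.0%, was that of Nfu_g_1_014133, whose CV was 8.60%. The smallest, 0.273%, was that of Nfu_g_1_019008, with a CV of 8.44% and means of 22.6 ± 1.38 CPM in DMSO skin, 22.4 ± 2.83 CPM at 15 pM and 22.45 ± 1.63 CPM at 150 pM (SD, n = 5 each). Both genes had nearly the same CV over all samples. In Nfu_g_1_014133 the 150 pM samples stood above the rest, and in Nfu_g_1_019008 the groups overlapped throughout, with 15 pM samples from 20.2 to 26.4 CPM.

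Stability was relative to the scale used. The summed TMM-scaled level of the 200 genes was 9621 ± 196.0 CPM in DMSO skin, 9598 ± 255.0 CPM at 15 pM and 9513 ± 228.1 CPM at 150 pM (SD, n = 5 each). Divided by its geometric mean over samples, the sum ran from 0.964 to 1.03. As a share of a sample's raw total, the same genes made up 0.982 ± 0.0547% in DMSO skin, 0.967 ± 0.177% at 15 pM and 0.939 ± 0.0608% at 150 pM, with 1.16% in 15 pM replicate 1 and 0.788% in 15 pM replicate 5 as the ends of the range. Without TMM factors, their median CV was 13.3%, against 24.7% for all candidates, and the rule applied to unscaled CPM chose 41 of the 200 genes again. The deposited RPKM had been divided by recycled library totals, as described below. On them the median CV was 14.7% for the 200 genes, against 24.7% for all candidates. With the DESeq2 size factors 186 and with upper-quartile factors 162 of the 200 genes were chosen again. When the summed counts of the 200 genes were used to scale the libraries in place of TMM, edgeR called 429 genes for 15 pM against DMSO, of which 315 were among the 320 called with TMM. For 150 pM against DMSO it called 20 genes, among them all 19 called with TMM. For 150 pM against 15 pM it called 355, of which 301 were among the 310. The 200 genes were chosen for steady TMM-scaled levels, so their sum follows the TMM scale by construction. Nothing is read from these overlaps.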

How the data were processed

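RNA was sequenced from 15 skin samples after library preparation with the TruSeq RNA kit v2, per the labels' protocols, which does not mark strand. The submitters' processing notes list CASAVA 1.8.2, STAR 2.4.1d and featureCounts 1.4.6-p4. The sources used here give no genome build, annotation or rule for reads shared by gene copies. The authors deposited raw counts and RPKM values per gene. The RPKM, checked against the counts in 3936 genes, had been divided by the 15 library totals recycled down the rows (1 length within 1% in 100% of genes, against 0% with each sample's own total), so they served for gene lengths and 1 alternative.

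TMM factors (edgeR 4.0.16, R 4.3.3) over all genes gave CPM. The test used filterByExpr (minimum count 10, minimum total 15), TMM factors of the 18253 genes kept, and 1 quasi-likelihood fit with a mean per group. Standard errors were computed as the size of the log2 fold change divided by the square root of the test's F statistic. Intervals were then taken from a t distribution. DESeq2 1.42.0 and limma 3.58.1 were alternatives. Steps were tested on simulated data. No 2 samples had identical counts.

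Replicates are numbered in order of registration. Genes named were the 5 of lowest CV, the 2 of highest and of lowest mean CPM, the 2 on either side of the limit, and those with the most extreme fold changes and between-group shares. Lists of named genes fixed for the study (qPCR reference genes, proteasome, spliceosome, RNA polymerase II, complex I, vesicle transport, cell type markers) could not be applied, since 0 identifiers matched. The rule and the lists were chosen with earlier results of these data known.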

Additional observations from a re-analysis of the deposited data

Results flagged for a closer look

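Among the 19 genes described by identifier and 6 summaries of the 200 genes per sample, 75 groups of 5 values were examined for a sample far from the rest. In 6 of them a sample was marked. Chance marks about 1 in 20 groups of independent, normally distributed values. These genes were named for their values in the same samples, so that rate is no yardstick here. At 150 pM, Nfu_g_1_021163 had 66.9 CPM in replicate 4, against 61.9 to 62.7 CPM in the other 150 pM samples, and Nfu_g_1_017026 had 11.46 CPM in replicate 2, against 9.24 to 9.69 CPM. At 15 pM, replicate 4 had 59.4 CPM of Nfu_g_1_019247, against 50.3 to 51.8 CPM in the others, and 13.9 CPM of Nfu_g_1_009186, a gene just outside the list, against 18.8 to 19.8 CPM. At 15 pM, replicate 5 had 38.5 CPM of Nfu_g_1_022432, against 43.8 to 45.2 CPM. In DMSO skin, replicate 1 had 14.4 CPM of Nfu_g_1_023497, against 12.4 to 12.7 CPM.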

How the results depend on the processing

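The list was kept at 158 to 200 genes under DESeq2 or upper-quartile factors, TMM factors of the tested genes only, another minimum level, SD of log2(CPM + 1), a CV relative to genes of similar level, or with no abundant gene left out. It shared 41 genes with the choice on unscaled CPM (median CV 10.7%), 38 with that on the deposited RPKM (11.7%), 54 with that by median absolute deviation over the median (12.2%), and 20, 75 and 29 with choices in the DMSO, 15 pM and 150 pM samples alone (14.3%, 9.99% and 14.7% over all 15 samples). Of these CVs 10.7% is on unscaled CPM and 11.7% on the deposited RPKM, the others on TMM-scaled CPM. Taking 100 genes kept 100 by construction. Without single samples 82 to 190 were kept (median CV 7.99% to 10.4% over all 15 samples), and without 15 pM replicates 4 and 5 together, an alternative added after the data were seen like the TMM factors of tested genes, 70 (10.4% over all 15 samples). The cause was not tested. These CVs include the samples that the choices did not use. Over the other 14 samples the genes chosen without 15 pM replicate 4 had a median CV of 6.52%.

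Of the 200 genes, DESeq2 called 3 for 15 pM against DMSO, 2 for 150 pM against DMSO and 4 between doses, limma-voom with quality weights 6, 11 and 2, and edgeR with upper-quartile factors 1 between doses, Nfu_g_1_014133, where it called 265 of all tested genes. Without single samples edgeR called 0 for either dose against DMSO and 0 to 1 between doses. The counts of all tested genes, which serve as background, were 320, 19 and 310 by edgeR, 1522, 636 and 1693 by DESeq2, 1930, 2341 and 1413 by limma-voom, and 86, 508 and 44 with only the 2 groups compared. Between doses 199 were called with no filter. Without single samples they were 118 to 798, 1 to 342 and 35 to 622. For 15 pM against DMSO the count moved by over 1.5 times without 15 pM replicate 2 (652), 3 (191) or 4 (798), 150 pM replicate 5 (209) or DMSO replicate 1 (145), 2 (118), 4 (119) or 5 (180). For 150 pM against DMSO it did so without 15 pM replicate 4 (342), 150 pM replicate 1 (11), 3 (7), 4 (12) or 5 (1) or DMSO replicate 1 (62), 2 (4) or 4 (8). Between doses it did so without 15 pM replicate 1 (501), 2 (187), 3 (55), 4 (622) or 5 (184), 150 pM replicate 1 (72), 2 (144), 3 (50) or 5 (35) or DMSO replicate 2 (153), 4 (110) or 5 (203). With the title numbers that 15 pM and DMSO samples share as a replicate block, 2 of all genes and 0 of the 200 were called. Deviations of same-numbered samples correlated at -0.26 to 0.36, over 0.1 in 2 of 5 pairs. Of the 5 15 pM samples 2 correlated best with their own number, and of the DMSO samples 0. With only 5 pairs these values cannot decide whether the numbers pair the samples.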
